A study of Rattus norvegicus with 2 samples.

Results

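The genes described are 10 keratins of simple epithelia, of mucosal stratified epithelia and of skin ducts, Krt4, Krt7, Krt8, Krt13, Krt18, Krt19, Krt20, Krt23, Krt78 and Krt79. They were selected by gene name, as simple, mucosal and duct keratins, and the rule used no measured value. The group was nevertheless chosen with earlier results of these data known, so its counts are not those of a group picked blindly. All 10 had at least 1 probe set annotated with that gene symbol alone, out of 22093 genes so measured. RNA came from keratinocytes of newborn rat epidermis (called NRK cells), which form the outer layer of skin, grown in medium with 10% fetal bovine serum and 0.4 µg/mL hydrocortisone. One group received 5 µM all-trans retinoic acid (RA), the vitamin A metabolite that binds nuclear receptors, from a solution in dimethyl sulfoxide. The other group is titled by its day alone and was taken as the vehicle control, because RA and vehicle are the only treatments that the study's design names. Medium was renewed every 24 h, and both RNAs carry the label of day 5. Each group has 1 array, and the labels do not say whether its RNA came from 1 culture or several. No strain, genetic change or animal number is given for either group.

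Keratins are the intermediate filament proteins of epithelial cells, and a filament needs a type I and a type II keratin in equal parts. Which pair a cell makes marks its kind of epithelium. Krt8 with Krt18 is the first pair of simple epithelia, Krt7 and Krt19 are typical of ducts and glands, Krt4 with Krt13 is the suprabasal pair of non-cornified mucosa such as the oesophagus, and epidermis instead uses Krt5 with Krt14 in its basal layer and Krt1 with Krt10 above it. Retinoids are known, from cultured human keratinocytes, to lower KRT1 and KRT10 and to raise KRT13 and KRT19. In skin, KRT20 and the KRT8 and KRT18 pair are known from Merkel cells, and Krt79 is known in the mouse from the duct that joins hair follicle and sebaceous gland.

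All levels below are log2 signals as the authors deposited them, and every difference is the level with RA minus the level without RA, in log2 units. A difference of 1 unit is called 2-fold, on the deposited scale. That scale runs to 19.93, past the 16 that a 16-bit scanner image allows (963 values without RA and 670 with RA lay above 16), so that a unit may be more than 2-fold or less in RNA. With 1 array per group there is no replicate, no error and no test for any value, and whether a difference exceeds the spread between cultures is unknown. The number of arrays, not a read depth, limits the precision. Probe sets of different genes have different probes, so a higher signal of 1 gene than of another does not show more of its RNA. Fewer cells that make a keratin and less of its RNA per cell cannot be told apart in such RNA.

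The 23 probe sets named as background controls by base composition ran from 2.21 to 5.86 without RA and from 2.27 to 6.47 with RA, and a gene inside that range on an array is called within background there. A difference with 1 value within background is given also as a bound ("at least"), the brighter value against the highest background signal of the other array. The 92 added spike sequences, which ran from 2.37 to 13.71 without RA, differed between the arrays by -0.47 to 0.38 and had a median difference of -0.02. The 8 labelling and hybridization controls differed by -0.39 to 0.07, with a median of -0.27. Of 14274 genes above a floor of 3.81 (the median of all values), 7.88% lay 2-fold or more above their level without RA and 5.63% 2-fold or more under it, and their median difference was -0.03. For epidermal identity 12 keratinocyte markers were read, listed with earlier results of these data known and so no independent check. Of the 12, 10 were measured, all above the floor and over the background range. Of these, 5 were at least 2-fold lower with RA (Krt14, Dsg3, Col17a1, Sfn and Perp) and 1, the laminin gene Lamb3, was higher; Sfn, Perp and Lamb3 were named once their values were known. Krt14 was at the highest value of the table, 19.93, without RA and at 12.25 with RA, so its difference of -7.68 may be larger. Dsg3, a desmosomal cadherin of the lower epidermis, was at 16.11 and 9.92, and Col17a1, a collagen that anchors basal cells, at 11.96 and 6.71.

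Among the 10 keratins, 4 were 2-fold or more higher with RA (Krt4, Krt79, Krt7 and Krt19), 3 were 2-fold or more lower (Krt23, Krt78 and Krt13) and 3 differed by less (Krt8, Krt20 and Krt18). Of all genes above the floor, 7.88% were so called in the higher direction and 5.63% in the lower one, 13.5% in all. By the bounds the counts were also 4 and 3 of the 10, beside 6.59% and 4.43% of all genes. The median of the 10 differences was -0.08, beside -0.03 for all genes above the floor. That median falls among the 3 keratins that lay within background on both arrays. By filament type, 3 of the 5 type II keratins were higher and 1 lower, and 1 of the 5 type I keratins was higher and 2 lower. At 4-fold the counts were 4 higher and 1 lower.

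**Figure D1:**
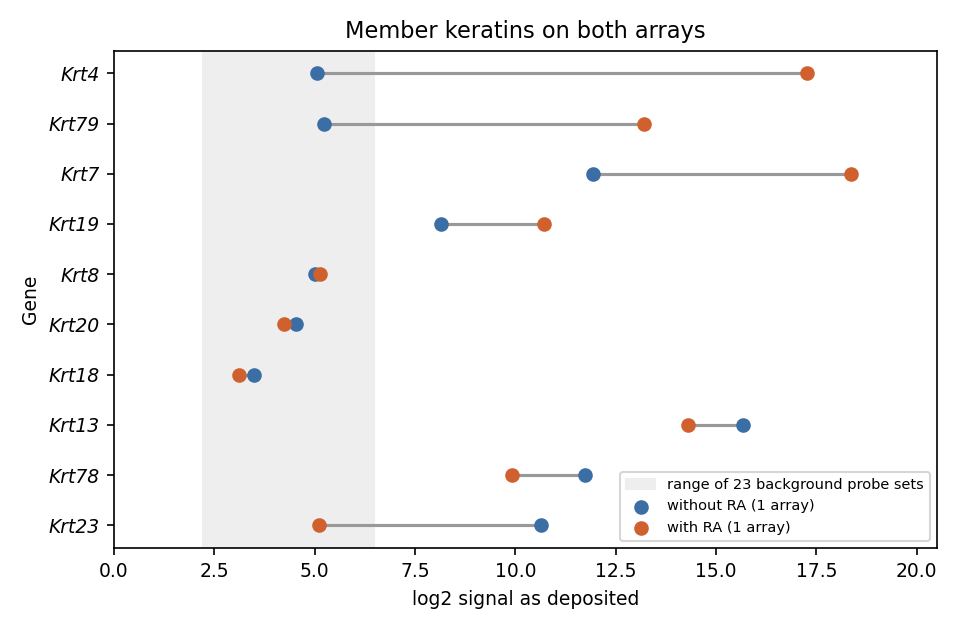
Deposited log2 signal (horizontal axis) of each of the 10 keratins, ordered by difference, on the array without RA (blue) and with RA (orange), 1 array each and no error bars. The grey band spans the 23 background probe sets of both arrays, 2.21 to 6.47. Krt4, Krt79 and Krt23 cross the edge of the band between arrays, and Krt8, Krt20 and Krt18 stay inside it.

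Krt4, the type II keratin of mucosal epithelia, had the largest difference of the 10. Its signal was 5.06 without RA, within background, and 17.28 with RA, a difference of 12.22. Measured against the highest background signal without RA, 5.86, it was higher by at least 11.42 units. It ranked 4th from the highest difference among the 14274 genes above the floor and 1st among all 46 numbered keratins measured. Its usual partner Krt13, the type I keratin of the same mucosal layers, went the other way. Krt13 was at 15.66 without RA and 14.29 with RA, well over background on both arrays, a difference of -1.37. With the trend over all probe sets removed by lowess this was -0.65, and after a further quantile normalization -0.69, so that Krt13 was then no longer 2-fold lower. As deposited, the differences of Krt4 and Krt13 were at least 12.79 units apart, with Krt4 at its bound and Krt13 at -1.37.

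Krt79, the keratin of the hair follicle and sebaceous duct, was at 5.23 without RA, within background, and at 13.20 with RA. The difference was 7.97, or at least 7.34 against the highest background signal, and it ranked 20th from the highest. Krt78, a type II keratin of stratified epithelia whose gene lies beside Krt79, was lower with RA, at 11.72 and 9.91, a difference of -1.82. Krt4, Krt79, Krt78, Krt8 and Krt18 follow each other in that order among the protein-coding genes of rat chromosome 7 in RefSeq's GRCr8 annotation. The 5 neighbours thus gave differences of 12.22, 7.97, -1.82, 0.13 and -0.36. On the other side of Krt4, Krt76 (a keratin of oral mucosa) was at 6.42 and 5.87, and beyond Krt18 the translation factor gene Eif4b was at 12.00 and 12.12. The genes on either side of Krt4 and Krt79 were not 2-fold higher. Keratin genes resemble each other in sequence, and how far a probe set also binds a neighbour's RNA was not tested.

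**Figure D2:**
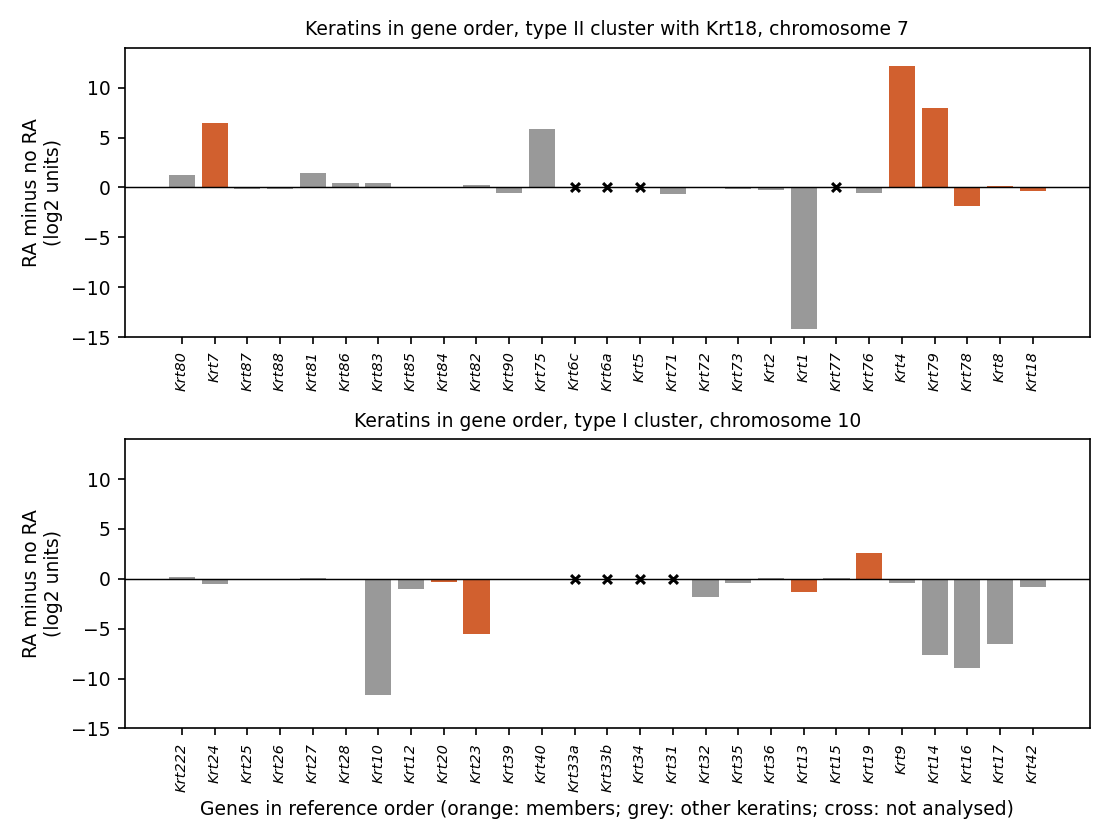
Difference with RA minus without RA (vertical axis, log2 units) of each keratin gene in reference gene order on chromosomes 7 (top) and 10 (bottom), 1 array per group. Orange bars are the 10 keratins described, grey bars the other keratins, and crosses mark genes not analysed here. The adjacent Krt4 and Krt79 reach 12.22 and 7.97, between Krt76 at -0.55 and Krt78 at -1.82.

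The sequences just upstream of the start sites of this group are shown for Krt4 and Krt79, the adjacent pair with the largest differences, and for Krt18, which stayed within background. They are the 250 bases before each start, from RefSeq's GRCr8, and 7 of the 10 genes had an entry (Krt4, Krt8, Krt18, Krt20, Krt23, Krt78 and Krt79, the last with 3 starts). Capitals mark 4 motifs, searched on both strands: the retinoid receptor half-site (AGGTCA or AGTTCA or GGGTCA or GGTTCA), the AP-1 site (TGANTCA), the GC box (GGGCGG) and TATAA.
Krt4, chr7:134930714-134930963, minus strand: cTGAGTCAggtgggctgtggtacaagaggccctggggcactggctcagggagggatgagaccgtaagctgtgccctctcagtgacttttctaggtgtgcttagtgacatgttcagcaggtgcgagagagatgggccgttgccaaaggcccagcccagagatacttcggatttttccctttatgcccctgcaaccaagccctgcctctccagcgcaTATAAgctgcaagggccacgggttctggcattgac
Krt79, outermost start, chr7:134946448-134946697, minus strand: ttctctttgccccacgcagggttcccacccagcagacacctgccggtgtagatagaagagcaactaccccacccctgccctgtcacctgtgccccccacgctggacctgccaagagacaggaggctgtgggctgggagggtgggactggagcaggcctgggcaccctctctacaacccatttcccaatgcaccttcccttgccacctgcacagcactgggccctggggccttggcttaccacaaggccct
Krt79, middle start, chr7:134946098-134946347, minus strand: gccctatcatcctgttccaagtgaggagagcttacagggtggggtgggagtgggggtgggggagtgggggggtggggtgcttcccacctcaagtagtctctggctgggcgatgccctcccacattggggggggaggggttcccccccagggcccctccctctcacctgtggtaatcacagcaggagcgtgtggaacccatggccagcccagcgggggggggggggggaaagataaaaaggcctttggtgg
Krt79, innermost start, chr7:134942607-134942856, minus strand: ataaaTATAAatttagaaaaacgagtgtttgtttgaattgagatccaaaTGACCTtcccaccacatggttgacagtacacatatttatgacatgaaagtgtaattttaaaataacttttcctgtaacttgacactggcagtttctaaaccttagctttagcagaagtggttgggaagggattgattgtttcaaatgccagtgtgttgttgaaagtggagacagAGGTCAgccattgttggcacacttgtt
Krt18, chr7:135035918-135036167, plus strand: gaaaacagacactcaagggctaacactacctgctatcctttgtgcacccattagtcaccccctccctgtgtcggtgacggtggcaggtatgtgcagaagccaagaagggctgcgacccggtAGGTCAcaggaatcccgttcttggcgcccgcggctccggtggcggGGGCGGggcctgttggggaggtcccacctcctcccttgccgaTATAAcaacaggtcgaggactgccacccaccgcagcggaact
In Krt4 an AP-1 site began 249 bases before the start and a TATAA 35 bases before it, and no half-site was found. The outermost and middle Krt79 windows held none of the 4 motifs, while the innermost, whose use in these cells was not measured, held half-sites beginning 201 and 27 bases before the start and a TATAA beginning 245 bases before it. Krt18 held a half-site at 129, a GC box at 84 and a TATAA at 42 bases. Krt20, also within background on both arrays, held a half-site at 56 and a TATAA at 49 bases. Krt8, likewise within background on both arrays, held no half-site, and only overlapping TATAA matches on both strands at 105 and 104 bases. Krt23 and Krt78 held none of the 4 motifs. Of 33469 upstream windows of the same length, 39.1% held a half-site, 6.34% an AP-1 site, 30.5% a GC box and 24% a TATAA. A direct repeat of half-sites spaced by 5 bases, the arrangement best known for RA receptors, was in 0.326% of all windows and in none of these 9, and repeats spaced by 1 or 2 bases were not found in them either. A match is a string of letters and not a binding site, and RA response elements can lie outside such windows.

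The duct and gland keratins were both higher with RA. Krt7, type II, was already over background without RA at 11.94 and stood at 18.37 with RA, a difference of 6.43 that ranked 35th from the highest. Krt7 has a second probe set, named as unmapped, with signals of 4.88 and 5.92, within background on both arrays. Its difference of 1.03 therefore has no direction to report, and the mean of both probe sets differed by 3.73. Krt19, type I and the shortest keratin, without the usual tail, was at 8.15 and 10.72, a difference of 2.57 that ranked 259th. Each of the 2 genes was thus measured over background on both arrays by the probe set used, so that neither difference rests on a dim array. Krt7 differed by 3.86 units more than Krt19. Beside Krt7 on chromosome 7, the epithelial keratin Krt80 was at 15.46 and 16.68 and the hair keratin Krt87 at 4.89 and 4.78. Beside Krt19 on chromosome 10, Krt15, a basal keratin whose gene separates it from Krt13, was near the top of the scale on both arrays, at 19.60 and 19.65. The neighbours Krt13, Krt15 and Krt19 thus differed by -1.37, 0.05 and 2.57, though Krt15, so near the top, may differ by more. The next gene on the other side, Krt9, of palm and sole skin, was at 5.50 and 5.05.

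The simple epithelial pair was not raised with them. Krt8 was at 5.00 without RA and 5.14 with RA, and Krt18 at 3.48 and 3.12, under the floor on both arrays. The second probe set named Krt18 gave 3.12 and 2.91. Krt20, the type I keratin of gut, bladder and Merkel cells, was at 4.53 and 4.23. All 3 genes lay within the background range on both arrays, so that their differences of 0.13, -0.36 and -0.29 have no direction to report. Krt18 has pseudogene copies, and how signal divides between the gene and its copies was not tested.

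Krt23, a less studied type I keratin, had the lowest difference of the group. It was at 10.64 without RA and 5.11 with RA, where it fell within background. The difference was -5.54, and at least 4.17 units against the highest background signal with RA, and it ranked 58th from the lowest. Its neighbours on chromosome 10 were Krt20, within background, and Krt39, a hair keratin at 3.03 and 3.02. One gene further, Krt12, the keratin of the cornea, was at 5.36 and 4.30, also within background.

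**Figure D3:**
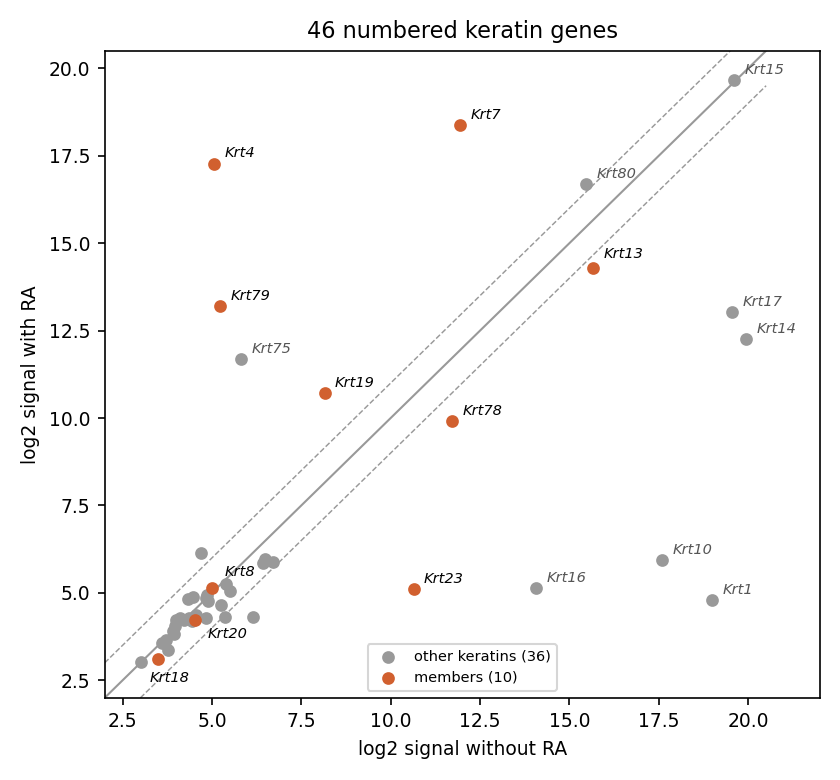
Deposited log2 signal without RA (horizontal axis) and with RA (vertical axis) of the 46 numbered keratin genes, 1 array per axis. Orange points are the 10 keratins described and grey points the other 36. The solid line marks equal signals and the dashed lines 2-fold. Krt4, Krt79, Krt7 and Krt19 lie above the upper dashed line with Krt75, Krt80 and Krt81, and Krt1, Krt10, Krt14, Krt16 and Krt17 lie far under the lower one.

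Among the 36 other numbered keratins, 3 were 2-fold or more higher with RA, 7 were lower, and the other 26 differed by less. The 3 higher ones were Krt75, a hair follicle keratin, by at least 5.83 (from 5.81, within background, to 11.69), Krt81, a hair keratin, by 1.43, within background on both arrays, and Krt80 by 1.22. By the bounds, 2 of these keratins were higher and 5 lower. The 3 lowest were the spinous keratins Krt1 and Krt10 and the wound keratin Krt16, which went from 18.98, 17.59 and 14.07 to 4.78, 5.94 and 5.14, all within background with RA. Their bounds were -12.51, -11.12 and -7.59. In a list of 12 epidermal keratins, 8 were measured, 5 were at least 2-fold lower and 1, Krt80, was higher, and the median difference was -7.10, or -7.06 with genes at their bounds. The 4 others of that list (Krt5, Krt6a, Krt6b and Krt77) were not analysed here. Ranked by difference, the 3 highest of the 46 keratins were Krt4, Krt79 and Krt7, with Krt19 the 5th.

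For each keratin that differed by 2-fold or more, the 2 genes above the floor with the closest pair of deposited values were looked up, by distance in log2 units over the 2 arrays. This is closeness of 2 numbers from different probes, and says nothing of equal RNA levels. For Krt4, Krt79 and Krt23 1 of the 2 numbers lay within background, so that the closeness rests on the brighter array. Krt4 was nearest to the cytochrome P450 gene Cyp2s1 (at 5.09 and 17.40) and Krt79 to Psca, a surface antigen gene of epithelia (at 5.29 and 13.12), each within background without RA as well, followed by Plet1 and Il1a. Krt23 was nearest to Dapl1 and LOC102549828. Of the 4 keratins over background on both arrays, Krt19 was nearest to Por, the P450 reductase gene (distance 0.02), and the growth factor gene Pdgfa (0.22), Krt13 to Pa2g4 (0.19) and Ptma (0.25), and Krt78 to Ubl7 (0.11) and H3-7l (0.19). For Krt7 the nearest were farther off, Tinagl1 (1.62) and Msln, the gene of mesothelin (1.83).

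Genes that bear on keratin filaments or on the epithelia these keratins mark were taken from lists, counted without the 10 keratins and above the floor. Of 12 simple epithelium genes above the floor (16 measured), 7 were 2-fold or more higher with RA and 0 were lower, and the median difference was 1.09. Of the 16, 6 lay within background on both arrays, among them Vil1, 1 of the 7, and by the bounds 6 were higher and the median was 0.96. The list is not of simple epithelia alone, since it shares Cdh1 with the keratinocyte markers. Cdh1, Cldn4 and Ezr, picked with their values in view, were already at 15.09, 14.05 and 13.35 without RA. The count is thus no readout of simple epithelial genes. The membrane mucin gene Muc4 went from 4.36 to 13.30, and the tight junction claudins Cldn3 and Cldn4 from 4.89 to 9.42 and from 14.05 to 18.27. Of 9 mucosal epithelium genes (10 measured), 1 was higher, Muc4, and 6 were lower, with a median of -1.68, and by the bounds 5 were lower, with a median of -1.61. They included Sprr3, a small proline-rich protein of the oesophagus, from 12.06 to 4.21, and Cnfn, a protein of the cornified envelope, from 18.20 to 5.95. Cnfn is also made in cornifying epidermis, so the list is not of mucosa alone and its count is no readout of mucosal genes. Crnn, cornulin of the upper oesophageal and epidermal layers, was at 10.08 and 2.89, and was picked after its value was seen.

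Filament linkers, a list of mostly plakins and plaque proteins that tie keratins to cell junctions, differed in both directions. Of 13, 6 were lower by 2-fold or more and 3 were higher, and the median difference was -0.39. Desmoplakin (Dsp), which anchors keratin at desmosomes, went from 18.01 to 13.41 and the plaque protein plakophilin 1 (Pkp1) from 18.30 to 13.89, while plakophilin 2 (Pkp2), the plakophilin of simple epithelia, went from 6.78 to 10.49. The other 2 higher genes, picked with their values in view, were envoplakin (Evpl), by 1.29, and Krtcap3, by 1.18. Krtcap3 is neither a plakin nor a plaque protein, and a role of it in filaments was not tested. Of 12 genes of keratin stability, among them chaperones and crosslinkers, 4 were lower and 1 was higher, and the median difference was -0.28. Tgm2, tissue transglutaminase, which crosslinks proteins, was higher by at least 6.39 (from 4.84, within background, to 12.25), and the others included Trim29 and Sfn (the 14-3-3 protein stratifin, which binds keratins), with differences of -3.90 and -3.84. The 2 remaining lower genes, seen first and then named, were Tgm1, by -2.54, and Hspb1, by -2.50.

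Of 21 transcription factors of epithelia above the floor, 2 were higher by 2-fold or more and 6 were lower, and the median difference was -0.45, or 0 by the bounds, at which 2 and 6 were also called. Elf3, an ETS factor of simple and glandular epithelia, went from 6.77 to 14.22. Foxa1, a forkhead factor of glandular epithelia named after its value was seen, went from 5.06 to 7.68. Grhl3, of the epidermal barrier, was at 11.67 and 8.48, and Klf5, of proliferating epithelia, at 13.55 and 10.64. Genes of the RA response were listed with earlier results of these data known, so they are no independent check of the treatment. Above the floor 4 of 9 were higher (Stra6, Dhrs3, Cyp26b1 and Tgm2, given above) and 3 lower. By the bounds 3 were higher and 1, Rxra, was lower. Stra6, the receptor for retinol-binding protein, was at 4.30 and 16.32, Dhrs3, a retinal reductase, at 6.70 and 13.09, and Cyp26b1, an RA-degrading enzyme, at 4.17 and 5.96, within background. The receptor gene Rxra, over background on both arrays, differed by -2.62. The receptor gene Rara went from 7.07 to 5.92 and the binding protein gene Crabp2 from 6.72 to 5.35, both within background with RA and with bounds of -0.60 and -0.24. Rarg differed by 0.31. Rarb, within background on both arrays at 3.92 and 3.85, differed by -0.07, and Cyp26a1, under the floor, by -0.04. Neither of these last differences has a direction to report.

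**Figure D4:**
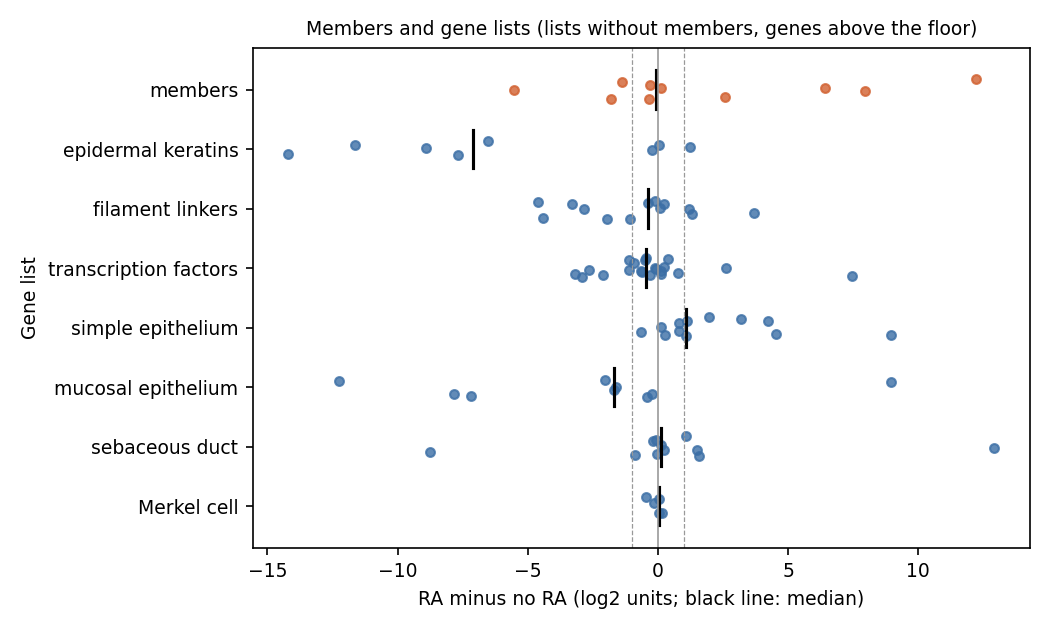
Difference with RA minus without RA (horizontal axis, log2 units) of the 10 keratins (orange) and of the genes above the floor in 7 lists without them (blue), 1 point per gene, 1 array per group. Black lines are medians and dashed lines mark 2-fold. The simple epithelium list, which shares Cdh1 with the keratinocyte markers, has its median at 1.09. The Merkel cell list stays within 2-fold. The mucosal list, which also holds genes of cornifying epidermis, has its median at -1.68.

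Because Krt8, Krt18 and Krt20 mark Merkel cells and Krt79 marks the sebaceous duct, lists drawn up for these were read beside them. Of 11 further Merkel cell markers, 5 were above the floor, 0 differed by 2-fold and 10 lay within background on both arrays, the other being Sox2 at 6.31 and 5.86. Their summed signal, as log2, was 7.68 without RA and 7.54 with RA, and the defining gene Atoh1 was under the floor. The sebaceous duct list is not of the duct alone, since it holds genes of fatty acid synthesis and a cornified layer protease. Of its 11 genes above the floor (13 measured), 4 were 2-fold or more higher with RA and 1 was lower. Their median difference was 0.10. Of the 13, 8 lay within background on both arrays, among them Gata6, a transcription factor gene of the duct, at 4.63 and 4.73, and by the bounds 3 were higher and 1 lower. Plet1 went from 5.48 to 18.41, which carried the list's summed signal from 13.10 to 18.42. Klk7, a protease of the cornified layer, went from 12.93 to 4.19, and Fasn, of fatty acid synthesis, was higher by 1.59. The 2 other higher genes, likewise picked with their values in view, were Scd, a fatty acid desaturase gene, by 1.49, and Lrig1, by 1.06 within background. The part of such cells in the Krt79 value was not tested.

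Markers of cells other than keratinocytes were also counted. Of 11 fibroblast markers 9 lay within background on both arrays, as did 7 of 8 melanocyte, 9 of 10 immune and 7 of 8 endothelial markers. Their summed signals went from 8.34 to 9.17, from 7.30 to 6.97, from 7.23 to 11.38 and from 8.18 to 7.33. The exceptions that differed by 2-fold were Cd68, a lysosomal protein of macrophages, at 5.41 and 11.31, Fbln1, a matrix protein, at 5.73 and 8.63, Col3a1, a fibrillar collagen, at 7.03 and 4.90 (a bound of -0.56, under 2-fold), and Tek, an endothelial receptor, at 7.72 and 6.38. Cd68, Fbln1, Krt4, Krt79, Krt7 and Krt19 were higher on the same array, and the part of other cells in the keratin values was not tested.

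**Figure D5:**
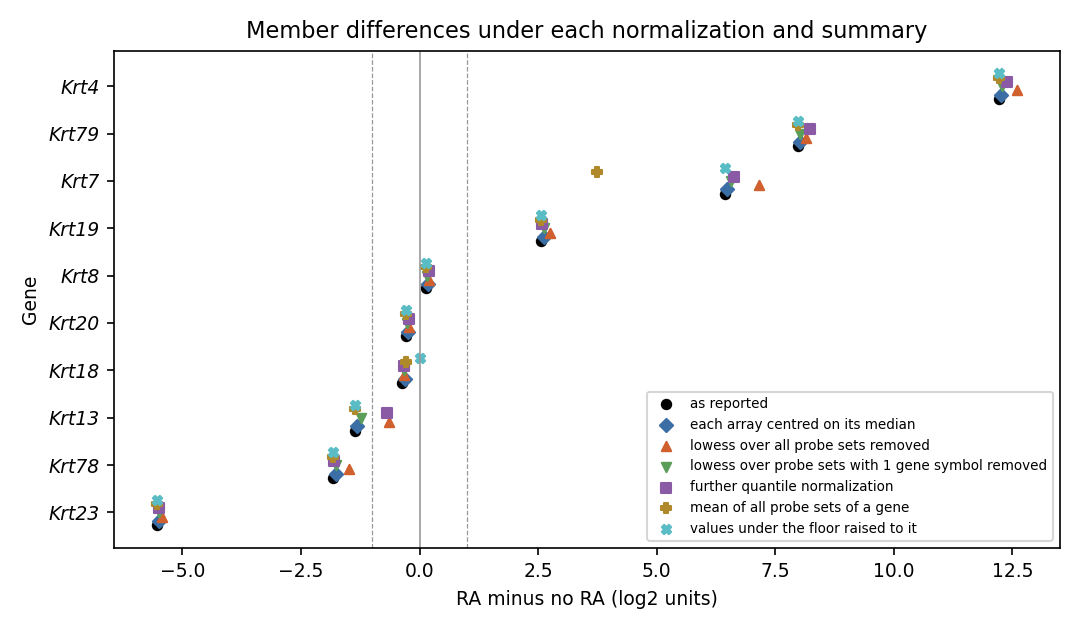
Difference with RA minus without RA (horizontal axis, log2 units) of the 10 keratins as reported and under 6 other normalizations or summaries, 1 marker shape per setting and 1 array per group. Dashed lines mark 2-fold. Krt13 comes inside 2-fold under 2 settings, and Krt7 moves from 6.43 to 3.73 with the mean of its probe sets.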

How the data were processed

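RNA of rat keratinocytes was measured on GeneChip arrays after biotin labelling, 1 array with RA and 1 without, grouped by their titles. The deposited table holds 1 log2 signal for each of 70580 probe sets and array. Per the submitters' processing notes, the authors used RMA, which corrects background, normalizes the arrays to each other and sums up probes, and the Transcriptome Analysis Console, with no version stated. The range of values gave the log base, and no genome build is named in the labels. Of the probe sets, 23446 had 1 gene symbol, 505 several and 46629 none, and only the first were used. Symbols were updated by gene ID through RefSeq's GRCr8 table (22077 matched, 1 changed). The probe set with the highest mean of both arrays stood for a gene. No test was possible, and the counting was tested on simulated data.

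The keratins and the gene lists were chosen with earlier results of these data known. Named genes are the 10 keratins, the 3 other keratins with the highest and the 3 with the lowest difference, chromosome neighbours, the 3 list genes with the largest difference, all RA response genes and the 2 genes nearest in signal. Alternatives were median centring, lowess (span 0.2) over all or over 1-symbol probe sets, quantile normalization, mean of probe sets, values raised to the floor, other floors (none, or 5.45), dimmer values at background (added after seeing the data) and folds of 1.5 and 4. Python 3.11.15, numpy 2.4.6, pandas 2.3.3 and statsmodels 0.14.6 were used.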

Additional observations from a re-analysis of the deposited data

How the results depend on the processing

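The 4 keratins called higher with RA stayed at least 2-fold higher under all 6 normalizations and summaries tried, with Krt4 between 12.22 and 12.59, Krt79 between 7.97 and 8.23, Krt19 between 2.57 and 2.75, and Krt7 between 3.73 (mean of its probe sets) and 7.17 (lowess over all probe sets). Krt23 stayed between -5.54 and -5.43 and Krt78 between -1.82 and -1.49, while Krt13 came to -0.65 and -0.69, inside 2-fold, under lowess over all probe sets and under quantile normalization. The median of the 10 keratins stayed between -0.08 and 0.07 and turned positive with values under the floor raised to it. Counted only over the 7 keratins over background on either array, a choice made after seeing the data, the median was 2.57, which is the Krt19 difference. These are the same 7 keratins that were called 2-fold higher or lower. Krt4, Krt79 and Krt23 are among them only through their brighter array. The filter thus depends on the differences themselves, and this median adds nothing about the group. At a threshold of 1.5-fold 1980 genes were higher and 1757 lower, and at 4-fold 435 and 285, with 1 of the 10 keratins lower. None of the 7 called keratins changed direction under these settings. No paired analysis was possible because there is a single array per group, and leaving out a replicate was likewise impossible. Signals within the background range, those of Krt8, Krt18 and Krt20 on both arrays and of Krt4, Krt79 and Krt23 on 1, bound how small a level could be read.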
